A study of Homo sapiens with 9 samples.

Results

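The ZNF genes make up the main body of the human zinc finger family, and 298 of them were well expressed in HEK293T cells. They were chosen by their measured level, as the protein coding genes named ZNF with a number (and at most 1 letter) whose baseMean, the mean of the normalized reads over the libraries of a table, was above 500 in both deposited tables. Of 51105 genes listed in both tables, 503 were protein coding ZNF genes. A further 135 had a baseMean above 50 in both tables without passing 500 in both, and the remaining 70 were at or under 50 in at least 1 table. Since baseMean averages input and RIP libraries, the choice used measured values, and 13 of the 298 genes had an estimated input mean at or under 500 in at least 1 table.

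The study used RNA immunoprecipitation (RIP) to ask which RNAs were associated with the nuclear poly(A) binding protein (PABPN) and which with the cytoplasmic poly(A) binding protein (PABPC). HEK293T is an established human embryonic kidney line that carries the SV40 large T antigen, and all the cells were crosslinked with 0.1% formaldehyde for 10 min and were otherwise untreated. Each of 3 biological replicates gave a lysate that was divided, so that 3 PABPN RIP, 3 PABPC RIP and 3 Input libraries of ribodepleted RNA were compared, all from a single cell line. Reads in exons and introns were counted together, so that spliced and unspliced RNA of a gene are not separated. Counted reads on the listed genes were estimated at 36.5 to 52.2 M per library, which leaves out reads outside those genes, and values of single libraries were not analysed here. The 7 marker genes of HEK293T cells had a baseMean of 264.9 (PAX2) to 56817 (NEFM) in the PABPN table. Of the markers of other cell types, CD3E was listed at 0, PTPRC, ALB and PECAM1 lay between 0.804 and 15.2, and COL1A1 was at 455.5.

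C2H2 zinc finger proteins bind DNA through tandem fingers, each of which holds a zinc ion between a pair of cysteines and a pair of histidines. Many carry a KRAB domain at the N-terminus, which recruits TRIM28 (KAP1) and through it histone methyltransferases, HP1 proteins and deacetylases, and many of these proteins silence transposable elements. The genes arose by repeated duplication and lie in large part in clusters on chromosome 19. Messages of this family are known for short half-lives. PABPN coats newly made poly(A) tails in the nucleus, and PABPC replaces it on tails in the cytoplasm, where it takes part in translation and in mRNA decay.

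From 7 of the genes 1 finger with the linker that follows it is shown, 81 bases or 27 codons of the coding strand in hg38. The codons of the zinc-binding cysteines and histidines are in capitals. Each finger was picked by a pattern that fixes these residues, their spacing and the linker, so part of the likeness was set in advance. A single finger does not show how alike the whole messages are. ZNF224, ZNF331 and ZNF121 were among the genes most enriched with PABPN, ZNF420 was depleted from both proteins, ZNF700 was among those most depleted from PABPC, and ZNF417 and ZNF587 are close relatives. The stretches lie within coding exons at chr19:44107868-44107948 (ZNF224, plus strand), chr19:53577545-53577625 (ZNF331, plus), chr19:9566009-9566089 (ZNF121, minus), chr19:37128840-37128920 (ZNF420, plus), chr19:11949888-11949968 (ZNF700, plus), chr19:57908634-57908714 (ZNF417, minus) and chr19:57859976-57860056 (ZNF587, plus).
ZNF224: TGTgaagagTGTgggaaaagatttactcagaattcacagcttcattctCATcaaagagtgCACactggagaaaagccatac
ZNF331: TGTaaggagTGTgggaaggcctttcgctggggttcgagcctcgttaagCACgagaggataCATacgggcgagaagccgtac
ZNF121: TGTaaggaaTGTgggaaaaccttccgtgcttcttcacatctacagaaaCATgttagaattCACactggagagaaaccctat
ZNF420: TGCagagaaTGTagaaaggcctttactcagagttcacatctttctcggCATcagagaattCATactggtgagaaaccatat
ZNF700: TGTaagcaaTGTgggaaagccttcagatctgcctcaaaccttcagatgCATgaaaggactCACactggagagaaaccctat
ZNF417: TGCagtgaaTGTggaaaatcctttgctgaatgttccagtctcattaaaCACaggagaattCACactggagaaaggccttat
ZNF587: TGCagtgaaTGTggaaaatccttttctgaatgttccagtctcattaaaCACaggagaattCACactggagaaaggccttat

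Apart from the pair ZNF417 and ZNF587, which matched at 80 of 81 bases, these fingers shared from 46 bases (ZNF700 and ZNF417) to 65 bases (ZNF121 and ZNF700). ZNF121 and ZNF700, the most alike of the others, differed in their values with both proteins, whereas ZNF417 and ZNF587 were close. The log2 fold change of ZNF417 was 0.78 ± 0.10 (SE) with PABPN and -0.26 ± 0.12 with PABPC, and that of ZNF587 was 0.83 ± 0.12 and -0.19 ± 0.13. Reads of 75 nt cannot be assigned where exons are identical, and 29.3% of the 75-base exon windows of ZNF417 and 18.6% of those of ZNF587 recur in another gene, so these values may not be independent. Among all 298 genes, 179 shared no such window with another gene and 28 shared over 10% of them. The other gene may be one annotated at the same place, such as a read-through gene, so a shared window need not recur elsewhere in the genome.

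The first question was which ZNF transcripts were associated with PABPN relative to total RNA. Estimated group means of normalized reads ran from 339.8 to 21848 in Input, with a median of 1526, and from 441.1 to 23647 in PABPN RIP, with a median of 1881. Genes were called enriched or depleted where the authors' DESeq2 fit gave an adjusted p not above 0.01 and a log2 fold change beyond 0.5. By this rule 112 of the 298 ZNF genes (37.6%) were enriched with PABPN and 10 (3.36%) were depleted, and 176 were called neither way. Among all genes tested, 17.5% were enriched and 14.6% were depleted. Among protein coding genes with the same baseMean of above 500 in both tables, 13.3% were enriched and 19.2% were depleted. The ZNF genes therefore had a larger share enriched and a smaller share depleted than either background. Their median log2 fold change was 0.30 (range -0.98 to 1.77) against -0.13 for the protein coding genes of that level and -0.04 for all genes tested with PABPN, and 212 of 298 lay above 0. The 285 genes with an Input mean above 500 in both tables gave a like share, 102 enriched (35.8%) and 10 depleted.

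**Figure D1:**
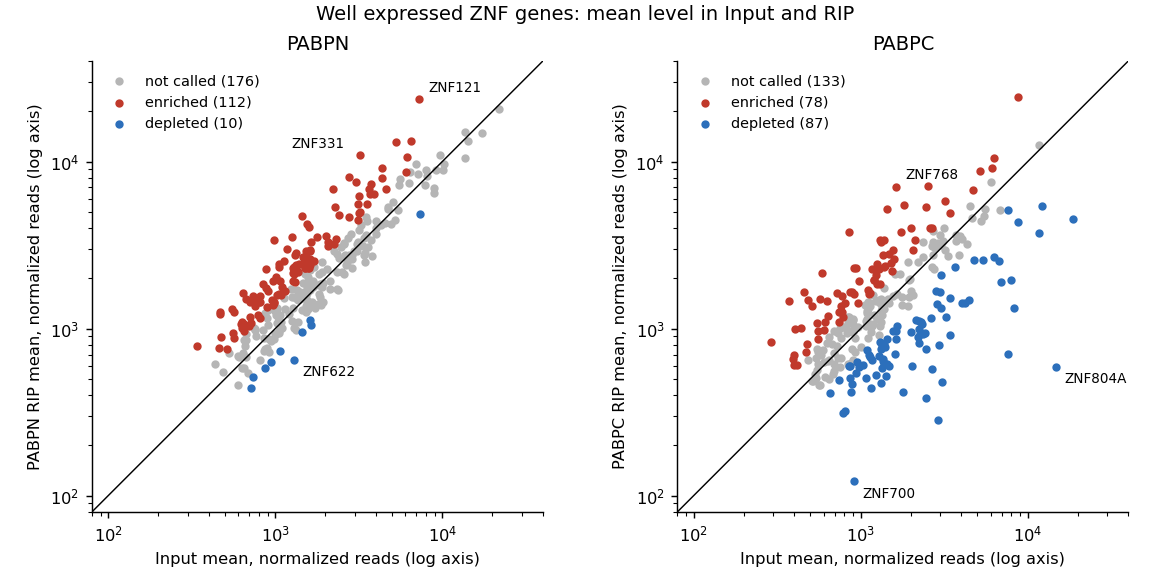
Estimated mean of normalized reads in Input (x axis) and in PABPN RIP or PABPC RIP (y axis), both on log axes, for the 298 well expressed ZNF genes; each point is a gene, the line marks equal levels, and red and blue are genes called enriched and depleted. With PABPN the called genes lay mostly above the line (112 against 10), and with PABPC they lay on both sides (78 against 87).

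Of the 6 genes with the highest PABPN values, 4 hold a KRAB pattern, a share near that of all the ZNF genes (182 of 298). ZNF692, a 5-finger protein with no KRAB pattern, had estimated means of 986.2 in Input and 3373 in PABPN RIP, the highest log2 fold change of the family at 1.77 ± 0.12 (adjusted p = 3.88e-51). ZNF331, a KRAB protein encoded at an imprinted locus, rose from 3239 to 10972, a log2 fold change of 1.76 ± 0.15. ZNF224, a KRAB repressor with 18 fingers, rose from 1441 to 4734, a log2 fold change of 1.72 ± 0.12. All 3 were therefore more than 3 times as abundant, relative to the other RNAs, in the RIP as in Input. ZNF121 had the most reads of the 6 genes, with 7309 normalized reads in Input and 23647 in PABPN RIP (1.69 ± 0.12). ZNF621 and ZNF266, both KRAB genes, followed with 1.61 ± 0.09 and 1.54 ± 0.09. Among these 6 genes only ZNF121 was also called enriched with PABPC (0.76 ± 0.13), and in the test of the difference all 6 were higher with PABPN.

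Depletion from PABPN was shallow, and none of the 10 genes changed by more than 1 on the log2 scale. ZNF622, a cytoplasmic factor in the maturation of the large ribosomal subunit and so not a typical DNA-binding member, fell by 0.98 ± 0.14 (SE), from 1288 normalized reads in Input to 652 in PABPN RIP. ZNF184, a KRAB gene with 19 fingers, fell by 0.71 ± 0.12, and ZNF420, a KRAB protein known as a regulator of p53, fell by 0.64 ± 0.11. ZNF678, ZNF675 and ZNF777 fell by 0.60 ± 0.10, 0.60 ± 0.11 and 0.57 ± 0.14. These genes differed in their PABPC values. ZNF420, ZNF678 and ZNF675 were depleted from PABPC as well, ZNF777 was enriched with it, and ZNF622 and ZNF184 were called neither way.

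The same question for PABPC gave calls in both directions. Estimated means ran from 290.6 to 18684 normalized reads in Input and from 121.8 to 24314 in PABPC RIP, with medians of 1306 and 1224. Of the 298 ZNF genes, 78 (26.2%) were enriched with PABPC, 87 (29.2%) were depleted and 133 were called neither way. Of the 13 genes with an Input mean at or under 500 in at least 1 table, 12 were enriched with PABPC, and the other 285 genes had 66 enriched (23.2%) and 87 depleted (30.5%). The backgrounds were 38.4% enriched and 32.4% depleted over all genes tested, and 40.6% enriched and 28.4% depleted over protein coding genes of the same level. A smaller share of ZNF genes was thus enriched than in either background, while the share depleted was close to that of the protein coding genes. Centred on the median of 0.14 over all genes with baseMean above 50 in the PABPC table, 58 ZNF genes were enriched and 98 depleted. Centring shifts all genes alike and the background shares were not recomputed, so these 2 counts cannot be set beside them. The median log2 fold change was 0.01 against 0.23 for those protein coding genes, and values ran from -4.65 to 2.16. By more than 1 on the log2 scale, 54 genes were depleted from PABPC and 27 were enriched with it, against 0 and 35 with PABPN. Among the ZNF genes large depletion was thus seen with PABPC only, while large enrichment was seen with both proteins. Background shares beyond 1 were not computed. Protein coding genes of the same level also spread more widely with PABPC, with a standard deviation over genes of 1.26 against 0.63 with PABPN. The contrast is therefore not shown to be particular to the ZNF genes.

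Of the 6 genes most depleted from PABPC, 5 have over 200 kb of introns. ZNF804A, a 1-finger gene known from schizophrenia genetics, had 14709 normalized reads in Input and 587.6 in PABPC RIP, a log2 fold change of -4.65 ± 0.15 (SE; adjusted p = 5.64e-198). ZNF407 fell from 7654 to 703.6 (log2 fold change of -3.44 ± 0.13) and ZNF385B from 2918 to 284.5 (-3.36 ± 0.11). Their introns sum to 336.4, 455.6 and 414.2 kb, against a median of 22.6 kb over the 298 genes. ZNF521, a cofactor of haematopoietic and neural differentiation, fell by 2.68 ± 0.13 and has 284 kb of introns. ZNF438 fell by 2.69 ± 0.16 and has 207.5 kb. ZNF700 stood apart: with only 22.4 kb of introns it fell from 906.9 to 121.8 normalized reads (-2.90 ± 0.14), and 42.1% of its span is overlapped by other genes in GENCODE release 44. None of these 6 genes was called with PABPN, where their log2 fold changes lay between -0.47 and -0.18.

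The genes most enriched with PABPC were short. ZNF511 rose from 853.9 to 3804 normalized reads (2.16 ± 0.15), and ZNF768, a 10-finger protein that binds repeats of the MIR family, rose from 1636 to 7089 (2.12 ± 0.10). ZNF32, ZNF581, ZNF22 and ZNF689 had log2 fold changes of 1.97 ± 0.12, 1.88 ± 0.12, 1.86 ± 0.14 and 1.85 ± 0.14. The introns of these 6 genes sum to between 0.45 and 17.3 kb, and ZNF689 alone holds a KRAB pattern, which 182 of all 298 genes hold. ZNF32 (373.8 normalized reads in Input and 1463 in PABPC RIP) and ZNF22 (454.8 and 1648) passed the limit of 500 through the RIP libraries, so the choice of genes favoured their enrichment. The whole spans of ZNF511, ZNF32 and ZNF581 are overlapped by other genes in GENCODE release 44, which makes their counts less certain. Of the exon windows of ZNF511, 42.9% are shared with another gene, which may be one at the same place. With PABPN none of the 6 was called, and their log2 fold changes lay between -0.34 and 0.49.

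The 2 RIPs share the Input libraries, so the difference of the fold changes was tested for each gene, with BH adjustment over the 14581 genes tested. The difference was above 0 for 210 of the 298 ZNF genes and its median was 0.55 on the log2 scale, against -0.18 for protein coding genes of the same level and 0.07 for all genes tested. It was called in favour of PABPN for 152 ZNF genes (51.0%), in favour of PABPC for 38 (12.8%) and not called for 108. Over all genes tested the shares were 36.1% towards PABPN and 33.4% towards PABPC. Over protein coding genes of the same level they were 30.1% and 39.8%. The family therefore stood on the PABPN side of both backgrounds.

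**Figure D2:**
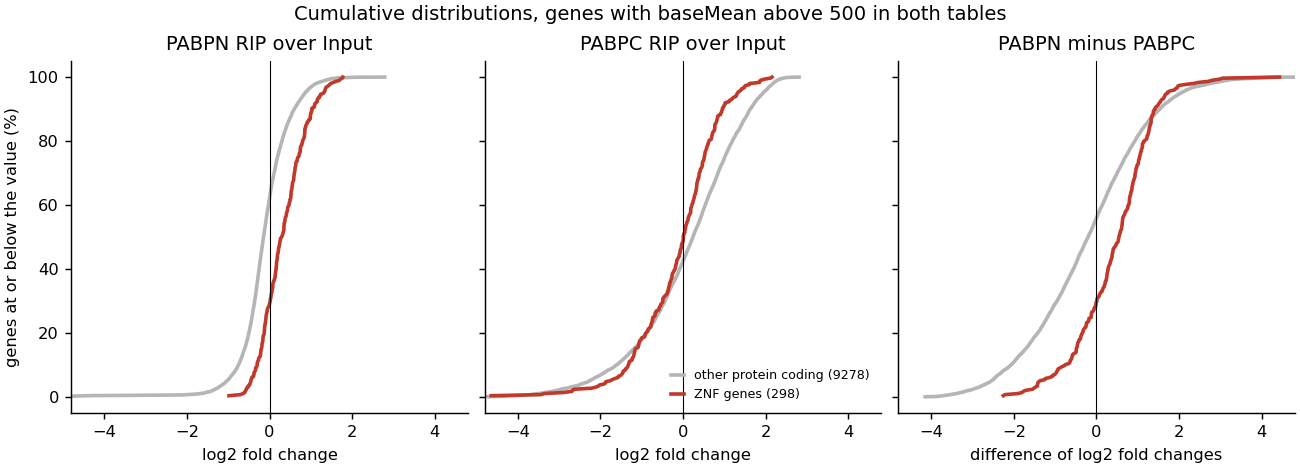
Cumulative share of genes (y axis, percent) at or below a log2 fold change, or a difference of log2 fold changes (x axis), for the 298 ZNF genes in red and the 9278 other protein coding genes with baseMean above 500 in both tables in grey. The red curve lies to the right of the grey one with PABPN over its middle and upper part (medians of 0.30 and -0.14), whereas with PABPC the medians were 0.01 and 0.24.

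The 4 largest differences towards PABPN came from genes that were not called with PABPN and were strongly depleted from PABPC. They were ZNF804A (4.43 ± 0.20), ZNF385B (3.06 ± 0.14), ZNF407 (2.98 ± 0.18) and ZNF536 (2.80 ± 0.13). ZNF536, a repressor of neuronal differentiation, has the longest introns of the 298 genes, 478.4 kb, and had 9731 normalized reads in Input and 10900 in PABPN RIP, but 8318 and 1337 with PABPC. The 4 largest differences towards PABPC were ZNF511 (-2.26 ± 0.21), ZNF581 (-2.22 ± 0.20), ZNF703 (-1.90 ± 0.18) and ZNF672 (-1.80 ± 0.20). ZNF703, a corepressor of the NET family amplified in luminal breast cancer, rose from 1815 to 5524 normalized reads with PABPC and was not called with PABPN (-0.29 ± 0.12). It was 1 of 5 genes in which the finger pattern found no match.

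Some genes were called with both proteins. ZNF513, ZNF764, ZNF641 and ZNF580 were the most enriched with both, with log2 fold changes of 1.10 to 1.21 with PABPN and of 1.17 to 1.61 with PABPC, and the difference was called for none of the 4. ZNF513 (Input means of 339.8 and 290.6) and ZNF764 (485.3 in the PABPC table) passed the limit of 500 only through RIP libraries, so the choice of genes favoured their enrichment. The span of ZNF580 is 94.8% overlapped by other genes, among them ZNF581, which was not enriched with PABPN (-0.34 ± 0.15). Depletion from both was seen for ZNF420, ZNF678, ZNF675 and ZNF724. Of these ZNF678 had the most reads, with 7393 normalized reads in Input and 4874 in PABPN RIP, and 6322 and 2679 with PABPC. ZNF724 shares 51.9% of its exon windows with other genes, so its value is less certain.

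Genes called in opposite directions show the contrast within a single gene. Both comparisons share the Input libraries, so the number named in each direction is no result. ZNF789, a KRAB gene, rose with PABPN from 1015 to 2035 normalized reads (1.00 ± 0.14) and fell with PABPC from 866.4 to 507.9 (-0.77 ± 0.13). ZNF891, ZNF169 and ZNF594 did likewise and are, with ZNF789, only those with the largest difference among such genes, with PABPN values of 0.87 ± 0.11, 0.53 ± 0.10 and 0.62 ± 0.13 and PABPC values of -0.78 ± 0.12, -1.05 ± 0.12 and -0.91 ± 0.14. The opposite pattern, depleted from PABPN and enriched with PABPC, was found for ZNF777, ZNF468 and ZNF71. ZNF777 had 940.6 normalized reads in Input and 632.4 in PABPN RIP, and 804.5 and 1427 with PABPC. Nearly the whole spans of ZNF468, ZNF71 and ZNF789 (99.8%, 100% and 96.8%) are overlapped by other genes.

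**Figure D3:**
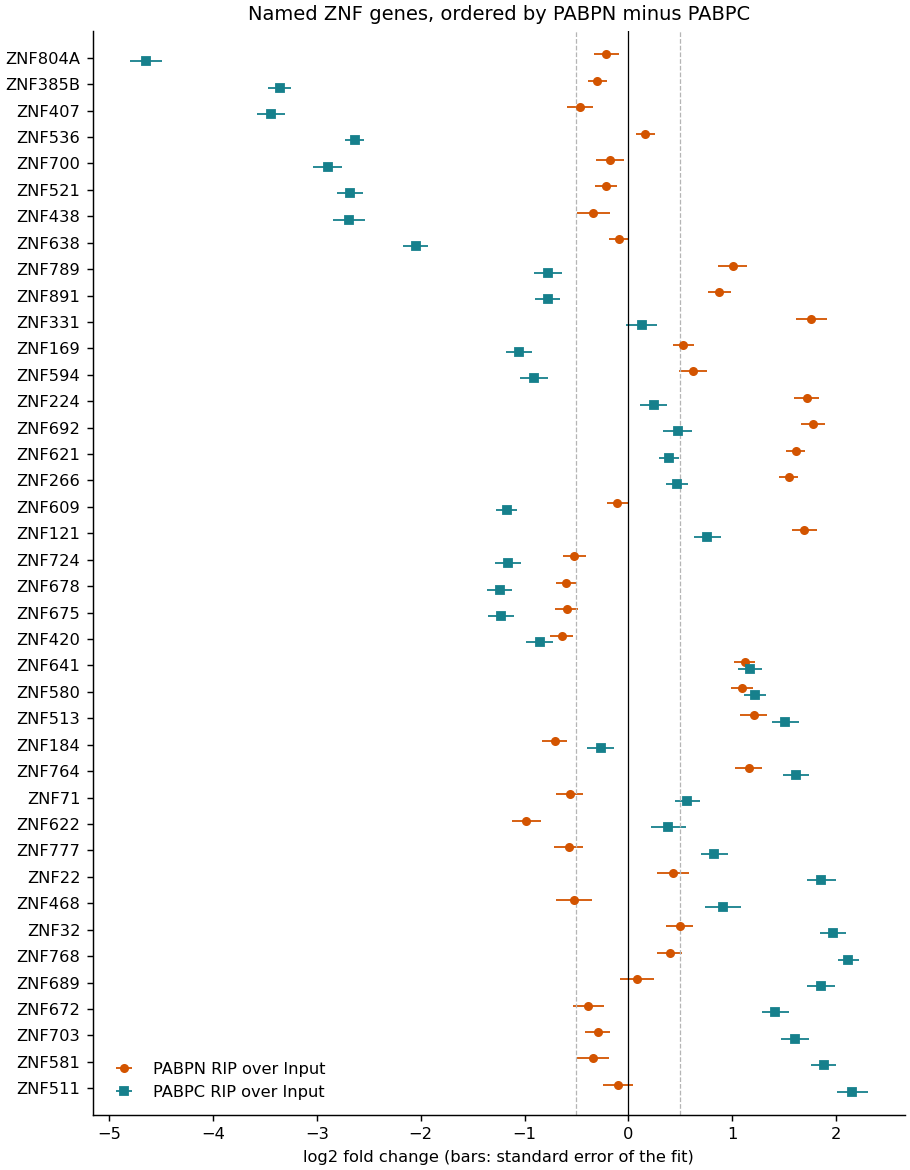
Log2 fold change over Input (x axis) with PABPN (circles) and PABPC (squares) for the named ZNF genes, ordered by the difference of the values; bars are the standard errors of the DESeq2 fit and the dashed lines mark -0.5 and 0.5. The PABPN values run from -0.98 to 1.77, and the PABPC values spread from -4.65 to 2.16.

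The genes with most RNA were not those with most enrichment. ZNF638, an RNA-binding nuclear protein, had the highest Input mean of the family, 21848 normalized reads, followed by ZNF804A with 17190 and ZNF609, a factor of cohesin loading, with 14244 (Input means from the PABPN table). None of the 3 was called with PABPN (-0.09 ± 0.10, -0.21 ± 0.12 and -0.11 ± 0.10), and all 3 were depleted from PABPC (-2.05 ± 0.12, -4.65 ± 0.15 and -1.17 ± 0.11). At the other end, ZNF525, ZNF225 and ZNF419 were just inside the threshold, with baseMean of 500.7, 501.4 and 503.4 in the PABPC table. Just outside it lay ZNF322 (483.3) and ZNF14 (483.4) in that table and ZNF428 (497.1) in the PABPN table. Their log2 fold changes with PABPN and PABPC were 0.16 and -0.09 for ZNF525, 0.19 and -0.07 for ZNF225, 1.43 and 0.61 for ZNF419, -0.34 and -0.92 for ZNF322, -0.13 and -0.54 for ZNF14, and -0.12 and 2.24 for ZNF428.

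Intron length, which the choice of genes did not use, went with the fold changes. The choice did use RIP reads, and the 13 genes with an Input mean at or under 500 in at least 1 table were kept in. Introns here are the bases of a gene outside the union of its exons in GENCODE release 44, and they summed to between 0 and 478.4 kb. Across the 298 genes the rank correlation of intron length with the log2 fold change was -0.73 for PABPC and -0.33 for PABPN (Spearman; genes are not independent replicates, and all were measured in the same libraries). Without the 24 genes that have over 100 kb of introns it was -0.68 and -0.24 over 274 genes. Among the 298 genes exonic length did less, with -0.26 for PABPC and 0.07 for PABPN, and the number of fingers gave -0.19 and -0.01. In other protein coding genes of the same level exonic length gave -0.50 for PABPC and 0.16 for PABPN. For intron length, the relation with PABPC was seen beyond the family. Over the 9276 other protein coding genes of the same level with a reference entry the correlation was -0.79 with PABPC, but only -0.08 with PABPN. Input level also went with intron length, with a median Input mean of 1031 normalized reads in the 75 genes with the shortest introns and 3120 in the 75 with the longest. Its part in the relation was not tested.

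In quartile groups of intron length the median PABPC log2 fold change was 0.73 (75 genes with the shortest introns), 0.12 (74), -0.21 (74) and -0.998 (75 with the longest). In the shortest group 53 genes were enriched with PABPC and 2 were depleted, whereas in the longest 2 were enriched and 50 were depleted. Other protein coding genes within the same limits had 85.5% enriched and 2.50% depleted in the shortest group, and 8.996% enriched and 57.3% depleted in the longest. For the ZNF genes the shares were 70.7% and 2.67%, and 2.67% and 66.7%. Of the 24 genes with over 100 kb of introns 22 were depleted and none was enriched, but shares of other protein coding genes above 100 kb were not computed. With PABPN the medians were 0.55, 0.41, 0.26 and 0.07, and 40, 33, 27 and 12 genes were enriched (53.3%, 44.6%, 36.5% and 16%), against 22.8%, 17.4%, 13.9% and 5.02% of the other protein coding genes. Other protein coding genes within the same limits of intron length had median PABPN values of -0.07, -0.05, -0.08 and -0.19 and median PABPC values of 1.37, 0.78, 0.37 and -0.67. In each group the ZNF genes thus had a higher median with PABPN and a lower median with PABPC than other protein coding genes with introns of like length.

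**Figure D4:**
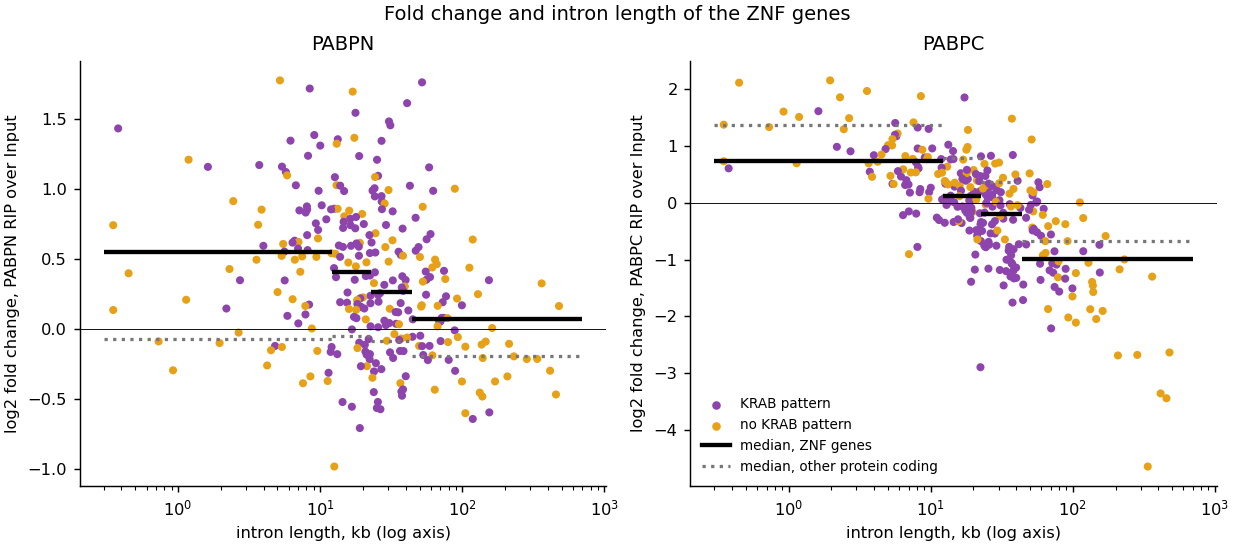
Log2 fold change over Input (y axis) with PABPN and PABPC against summed intron length in kb (x axis, log scale; lengths under 0.35 kb are drawn at 0.35) for the 298 ZNF genes, coloured by whether the protein holds a KRAB pattern. Solid bars are medians of the ZNF genes in quartile groups of intron length, from 0.73 in the shortest to -0.998 in the longest with PABPC, and dotted bars are medians of other protein coding genes within the same limits.

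A KRAB pattern was found in the canonical protein of 182 of the 298 genes. In those genes the log2 fold changes had medians of 0.35 (PABPN) and -0.08 (PABPC), and in the 116 others 0.21 and 0.30. Enrichment with PABPN was called for 79 of the 182 and 33 of the 116, and enrichment with PABPC for 34 and 44. The difference was called towards PABPN for 106 KRAB genes and 46 others, and towards PABPC for 14 and 24. Median intron length was alike in both classes, 22.6 and 23.6 kb, but the spread was not, as all 6 genes with the longest introns lacked the pattern. Within those groups the median PABPC value was lower in KRAB genes in the first 3 groups (0.60 against 0.84, 0.01 against 0.36 and -0.44 against 0.25) and higher in the longest (-0.80 against -1.06). With PABPN the median of KRAB genes was higher in the shortest group (0.75 against 0.40) and in the longest (0.12 against -0.06), and lower in the other two (0.37 against 0.48 and 0.25 against 0.32).

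**Figure D5:**
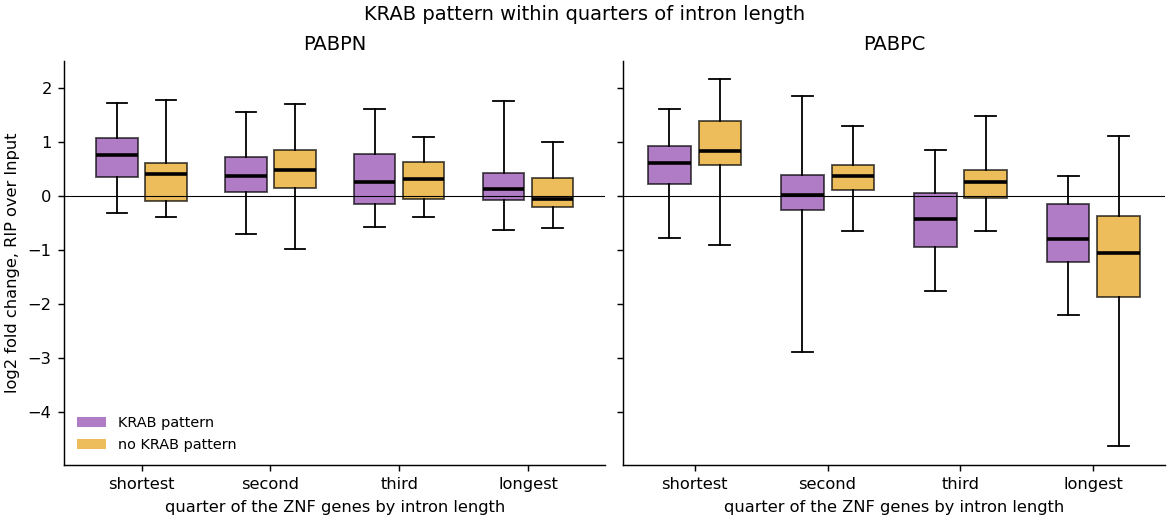
Log2 fold change over Input (y axis) with PABPN and PABPC for ZNF genes with and without a KRAB pattern, in quartile groups of intron length (x axis); boxes span the middle of the genes from the lower to the upper quartile, the line in each box is the median and whiskers reach the lowest and highest gene. With PABPC the medians of KRAB genes run from 0.60 in the shortest group to -0.80 in the longest.

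Chromosome, SCAN pattern, finger number and close relatives were set beside the values in the same way. The 126 genes on chromosome 19, of which 110 hold a KRAB pattern, had medians of 0.28 with PABPN and 0.00 with PABPC, and the 172 elsewhere had 0.31 and 0.02. The 14 genes with a SCAN pattern, a dimerization domain, had medians of 0.61 and 0.21, against 0.26 and 0.01 in the 284 others, and 8 of the 14 were enriched with PABPN and none depleted. By number of fingers the median PABPN value had no single direction: it was 0.02 in the 30 genes with up to 3 fingers (7 enriched), 0.37 in the 98 with 4 to 9 (38 enriched), 0.39 in the 104 with 10 to 14 (45 enriched) and 0.18 in the 66 with more (22 enriched). The 13 genes with a protein at least 90% identical to that of another gene had a median PABPN value of 0.72, against 0.25 in the 285 others. Of the 13, 10 were enriched, against 35.8% of the others. ZNF286A was counted through ZNF286A-TBC1D26, a gene that takes in ZNF286A itself. Some of the 13 are relatives of each other, such as ZNF324 and ZNF324B, and so are not separate cases.

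Relatives outside the selection gave values to set beside these. The 135 ZNF genes of lower level had medians of 0.31 with PABPN and 0.01 with PABPC, near those of the 298, and 38 were enriched with PABPN and 5 depleted. They differed in other values: 14.8% were depleted from PABPC (29.2% of the 298), the median difference was 0.36 (0.55), and the difference was called towards PABPN for 31.1% (51.0%), below the 36.1% of all genes tested. With PABPN 16 of 40 ZBTB genes (40%) and 11 of 22 ZSCAN and ZKSCAN genes (50%) were enriched, and 3 and 0 were depleted. Among all genes tested 17.5% were enriched with PABPN and 38.4% with PABPC. Enrichment with PABPC was called for 42.5% and 50% of the 2 groups, and their median differences were 0.01 and 0.21, below the 0.55 of the 298. Both groups encode C2H2 proteins, and a SCAN pattern was also found in 14 of the 298 ZNF genes. Of 13 ZFP genes 5 were enriched with PABPN (38.5%) and none depleted, and the median difference was 0.35. Families that bind zinc with other folds had lower medians with PABPN: -0.21 for 17 CCCH finger genes, whose products mostly bind RNA, and -0.05 for 67 RING finger genes, which encode ubiquitin ligases. Of those, 2 and 7 were enriched (11.8% and 10.4%), and the median differences were 0.33 and -0.12.

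The genes for proteins through which KRAB zinc fingers silence chromatin showed medians of -0.34 (PABPN) and 0.21 (PABPC) on the same scale. Of 21 corepressor genes 1 was enriched with PABPN (4.76%) and 3 were depleted (14.3%), against 13.3% and 19.2% of protein coding genes with baseMean above 500 in both tables. With PABPC 10 were enriched and 2 were depleted. The share enriched with PABPC, 47.6%, was near the 40.6% of protein coding genes with baseMean above 500 in both tables, and the PABPC median was near their 0.23, so the genes named next are single values and no result of the list. TRIM28, the scaffold that binds KRAB, had a log2 fold change of -0.96 ± 0.16 with PABPN and 0.97 ± 0.15 with PABPC. HDAC2 and UHRF1 were the other two genes depleted from PABPN (-0.97 ± 0.12 and -0.76 ± 0.11), and MBD3, of the NuRD complex, was enriched with both proteins (0.52 ± 0.09 with PABPN and 1.57 ± 0.10 with PABPC). The HP1 genes CBX1, CBX3 and CBX5 were enriched with PABPC (1.51 ± 0.13, 1.37 ± 0.15 and 0.74 ± 0.09). So were the NuRD and deacetylase genes MTA2 (1.27 ± 0.16), CHD3 (0.66 ± 0.10), HDAC1 (0.77 ± 0.13), RBBP4 (0.80 ± 0.12) and RBBP7 (0.65 ± 0.11). ATF7IP, the partner of SETDB1, and PPHLN1, of the HUSH complex, were depleted from PABPC (-0.74 ± 0.10 and -0.57 ± 0.13). The difference was called towards PABPC for 12 of the 21 genes (57.1%) and towards PABPN for 1 (4.76%), against 39.8% and 30.1% of those protein coding genes.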

How the data were processed

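RNA from 9 libraries was compared, in 3 groups of 3 named by the sample titles. The authors aligned reads to hg38 with STAR, counted them with featureCounts 2.0.2 (minimum overlap of 20 bases, annotation derived from GENCODE release 34 and NCBI genes, stretches shared by overlapping genes removed) and fitted each RIP against Input in DESeq2. The authors left out genes read through from a neighbour, by a separate list for either RIP. The deposited signal, baseMean, is a mean of size-factor normalized reads over 6 libraries. The deposited log2 columns are the fold change and its standard error (SE), the deposited score is the Wald statistic, and the deposited p-value columns are the Wald p with and without Benjamini-Hochberg (BH) adjustment. The design formula was not given in the sources used here.

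These columns of the authors' comparison were used as they stand, since counts per library were not analysed here. Group means were derived from baseMean and fold change. The number of counted reads was estimated from the baseMean of genes with 1 read in 1 library. Calls needed an adjusted p of at most 0.01, a change beyond 0.5 and baseMean above 50. The difference of fold changes was divided by the root of the summed squared SEs, which leaves out the covariance of the shared Input, and given a two-sided normal p with BH adjustment. The script was tested on simulated data. Repeated gene rows (123 per table) were reduced to the first. Gene structure and proteins came from GENCODE release 44, with fingers, KRAB and SCAN found by amino acid patterns and protein identity by blastp 2.17.0 over at least 80% of the query. A canonical protein that lacks a pattern may belong to a gene with other isoforms that hold it. Python 3.11.15, pandas 2.3.3 and scipy 1.17.1 were used.

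The members and gene lists were chosen with earlier results of these data known. Genes were named as the 6 highest and 6 lowest called fold changes with each protein, the 4 largest called differences each way, the 3 highest Input means, the genes called with both proteins (all if at most 12, else the 4 largest by the smaller change, in each direction), up to 4 called in opposite directions each way, the 3 genes on either side of the threshold, and corepressor genes called with either protein. ZNF417 and ZNF587 were added after their values were seen. Alternatives were other cut-offs, centring, other limits on baseMean and leaving out close relatives. SEs and p-values come from fits to 3 against 3 libraries.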

Additional observations from a re-analysis of the deposited data

Results flagged for a closer look

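Effects of both RIPs were compared gene by gene by the test of their difference. It placed 152 ZNF genes higher with PABPN and 38 higher with PABPC. Of the named genes, the differences of log2 fold change (PABPN minus PABPC) were 4.43 for ZNF804A, 3.06 for ZNF385B, 2.98 for ZNF407 and 2.80 for ZNF536. They were -2.26 for ZNF511, -2.22 for ZNF581, -1.90 for ZNF703 and -1.80 for ZNF672. The first 4 genes have 336.4 to 478.4 kb of introns and the last 4 have 0.92 to 8.53 kb, and the part of intron length in these differences was not tested. The spans of ZNF511 and ZNF581 are wholly overlapped by other genes.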

How the results depend on the processing

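No paired analysis was possible because the deposited tables hold fits over 6 libraries and values per library were not analysed here, and for the same reason no replicate could be left out. Of 66 values under alternatives, 50 stayed within 1.5 times the count or within the median SE of the median. With a log2 cut-off of 1, 35 and 0 genes were enriched with and depleted from PABPN, 27 and 54 with PABPC, and 82 and 21 were higher with PABPN and with PABPC. A Wald test that the change exceeds 0.5 gave 44 and 1 for PABPN, 35 enriched with PABPC, and 85 and 22 for the difference. With baseMean above 1000 (194 genes in place of 298), 68 were enriched with PABPN and 2 depleted, and 23 were higher with PABPC. Counts and not shares were compared, so under other limits on baseMean a moved count need not be a moved share. The cause of the lower share depleted from PABPN was not tested. Centring each comparison on its median gene moved the median to -0.13 with PABPC, whose main value of 0.01 thereby changes sign, and to 0.73 for the difference, while that of PABPN became 0.34. An adjusted p of 0.05 and baseMean above 200 kept all 6 counts, and removal of the shared Input variance both counts of the difference, within 1.5 times the main ones. Leaving out genes with over 10% of exon windows shared (270 genes left) did so for the PABPN and PABPC calls. So did leaving out genes with over 50% of the span overlapped by other genes (241 left). Both alternatives were added after seeing the data, and genes with less sharing or overlap stayed in. The median SE of a single gene, which holds counting error and the spread between libraries together, was 0.119 with PABPN and 0.126 with PABPC.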
